A study of Homo sapiens with 6 samples.

Results

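The transcripts of the core cell cycle cyclins and of the cyclin-dependent kinases (CDKs) they bind were followed through the loss of SFPQ, an RNA- and DNA-binding protein of the nucleus. The 10 genes were taken by symbol, by a rule that uses no measured value, from the 60664 genes of the count table: the D-type cyclins CCND1, CCND2 and CCND3 with their kinases CDK4 and CDK6, the E-type cyclins CCNE1 and CCNE2 with CDK2, cyclin A2 (CCNA2) and CDK1. All 10 symbols matched 1 Ensembl gene each, and all 10 passed the filter on low counts of at least 10 counts over the libraries, which 29022 genes passed.

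Cyclins are the regulatory subunits without which CDKs have no activity, and they are made and destroyed in each round of division. D-type cyclins respond to growth factor signals and drive CDK4 and CDK6 to phosphorylate the retinoblastoma protein in G1, which releases E2F transcription factors. E-type cyclins with CDK2 then bring the cell into S phase, cyclin A2 works with CDK2 in S phase and with CDK1 in G2, and CDK1 is the kinase of mitosis.

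The cells were U-2 OS, a human osteosarcoma line whose genotype the labels give as polyploid. One condition received a control siRNA (siControl) and the other an siRNA against SFPQ (siSFPQ), transfected with a lipid reagent at 30 nM, with 3 biological replicates per condition, so that both conditions share the line and the transfection. The knock-down was transient and partial, all results rest on 1 cell line, and the time between transfection and harvest was not given in the sources used here. Poly(A) RNA was sequenced as a bulk population, in which a change in the share of cells in a cell cycle phase and a change in the RNA of a gene per cell cannot be told apart.

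SFPQ itself had 22381, 23139 and 21811 normalized counts in siControl replicates 1 to 3 and 3238, 3780 and 3108 in siSFPQ. A normalized count is a read count divided by the library's effective size and brought to a common scale. SFPQ was thus at 15.0% of its control level, with a log2 fold change of -2.73 (SE 0.05, adjusted p = 6.34e-30, quasi-likelihood test of edgeR, p adjusted by Benjamini-Hochberg over all 29022 genes). Total counts ran from 43469321 to 47119203 per library. Of 9 osteoblast lineage markers, the matrix genes COL1A1 and SPARC and the transcription factor RUNX2 were well expressed in every library. SPP1 had 307 to 848 counts, ALPL 128 to 195 and COL1A2 only 31 to 55. SP7, IBSP and BGLAP had at most 6 counts in any library.

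All 10 cyclin and CDK transcripts changed at an adjusted p under 0.05, 2 upward and 8 downward. CCND3 rose to 1.76 times its control level and CCND2 to 1.15 times, whereas CDK6 fell to 57.4% of control and the other 7 genes to between 77.1% and 90.7%. The normalized counts of the conditions did not overlap for any of the 10. None of the 10 passed a log2 fold change of 1.5. These counts have to be read against a transcriptome in which much changed: 44.6% of all genes tested were called, 22.4% higher and 22.1% lower, 10.3% were also past a log2 fold change of 1.5, and 52.3% had no overlap between the conditions. With library size alone as the scaling, 7622 genes were higher and 5502 lower, against 6514 and 6421 here, and 2 members rose and 6 fell. Among the 10384 genes whose mean was at least that of the lowest member, 9.38 CPM (counts scaled to a common library total), 70.0% were called, 31.3% higher and 38.7% lower. The median log2 fold change was -0.25 over the 10 genes and 0.02 over all genes tested.

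**Figure D1:**
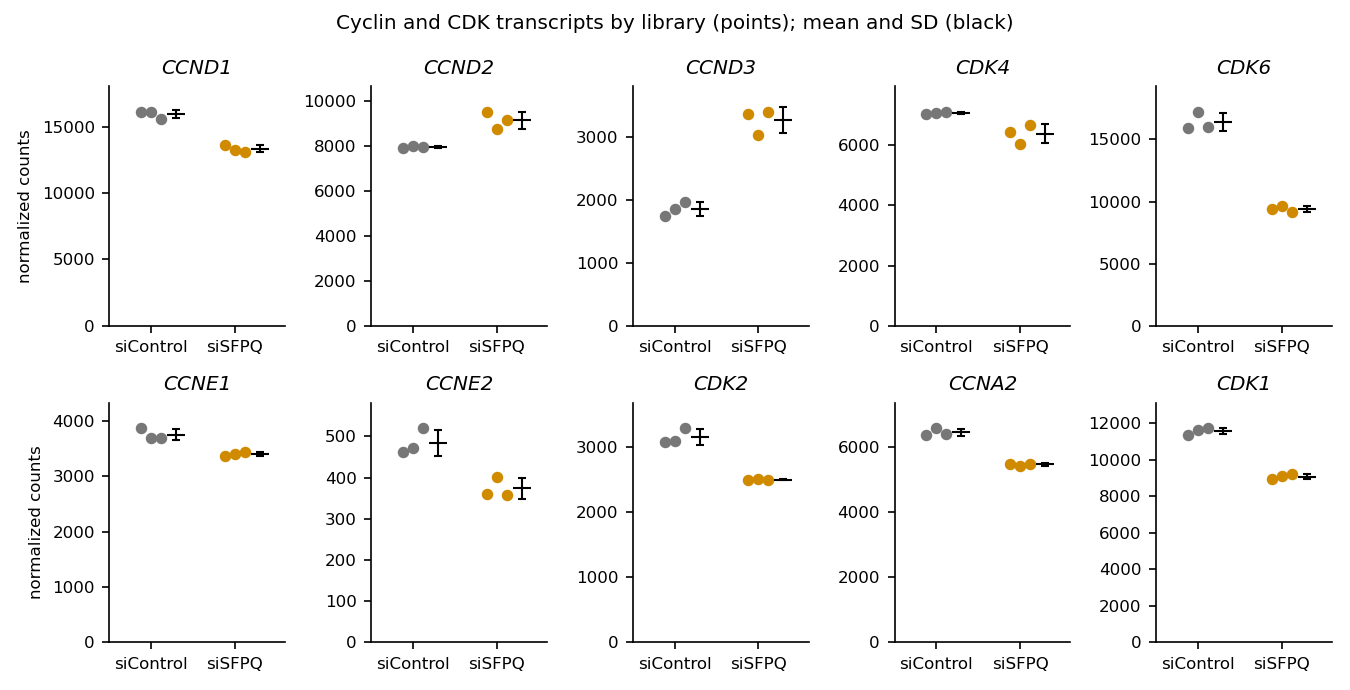
Normalized counts of the 10 transcripts in each library (grey points siControl, orange points siSFPQ, 3 per condition), with the mean and SD in black, and each y axis starting at 0. The siSFPQ points sit above the siControl points for CCND2 and CCND3 and below them for the other 8 genes.

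Of the D-type cyclins, CCND1 (ENSG00000110092; chromosome 11, 69641156 to 69654474, plus strand, GRCh38) is the member most often amplified or overexpressed in tumours. It had 16116, 16067 and 15595 normalized counts in siControl and 13615, 13259 and 13089 in siSFPQ. Its level fell from 15926 ± 288 to 13321 ± 269 (SD, n = 3 each), and the log2 fold change was -0.26 (SE 0.036, adjusted p = 2.41e-07, edgeR). Every siSFPQ library lay under every siControl library, by a step that was small beside the level itself.

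CCND2 (ENSG00000118971; chromosome 12, 4269771 to 4305353, plus strand) moved the other way. It had 7894, 7973 and 7921 normalized counts in siControl and 9508, 8732 and 9132 in siSFPQ. Its log2 fold change was 0.20 (SE 0.038, adjusted p = 3.9e-05, edgeR). The siControl libraries were tightly grouped, with an SD of 40.1, and the siSFPQ libraries spread wider, with an SD of 388.

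CCND3 (ENSG00000112576; chromosome 6, 41934934 to 42050357, minus strand), the D-type cyclin best known from blood cell lineages, was the transcript that rose most. It had 1744, 1849 and 1969 normalized counts in siControl and 3362, 3022 and 3394 in siSFPQ. The mean went from 1854 ± 113 to 3259 ± 206 (SD, n = 3 each), and the log2 fold change was 0.81 (SE 0.051, adjusted p = 2.89e-15, edgeR). The lowest siSFPQ library was well above the highest siControl library. Of the 10384 genes at or above the mean CPM of the lowest member, 2.68% had a log2 fold change as high as that of CCND3, against 23.2% for CCND2.

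CDK4 and CDK6 are close relatives that bind the same D-type cyclins, and their transcripts fell by unequal amounts. CDK6 (ENSG00000105810; chromosome 7, 92604921 to 92836573, minus strand) had 15903, 17220 and 15988 normalized counts in siControl and 9438, 9625 and 9137 in siSFPQ. Its log2 fold change was -0.80 (SE 0.038, adjusted p = 2.26e-18, edgeR). The gap between the conditions was several times the spread within either, and 7.69% of the genes at or above the lowest member's CPM fell as far.

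CDK4 (ENSG00000135446; chromosome 12, 57747727 to 57756013, minus strand) had 7011, 7042 and 7095 normalized counts in siControl and 6422, 6027 and 6669 in siSFPQ. Its log2 fold change was -0.15 (SE 0.04, adjusted p = 0.00279, edgeR). This call was lost when the libraries were scaled by library size alone, with a log2 fold change of -0.083 and an adjusted p of 0.0756. Among the genes at or above the lowest member's CPM, 36.0% had fallen as far as CDK4.

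The E-type cyclins both fell. CCNE1 (ENSG00000105173; chromosome 19, 29811991 to 29824312, plus strand) had 3869, 3688 and 3698 normalized counts in siControl and 3368, 3396 and 3447 in siSFPQ, a log2 fold change of -0.14 (SE 0.041, adjusted p = 0.00517, edgeR). It was the smallest change of the 10. The call was lost under library size alone (-0.077, adjusted p = 0.123) and when siSFPQ replicate 1 was left out (-0.119, adjusted p = 0.0555).

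CCNE2 (ENSG00000175305; chromosome 8, 94879770 to 94896678, minus strand) was the lowest of the 10 transcripts. It had 462, 472 and 520 normalized counts in siControl and 361, 402 and 358 in siSFPQ, with a log2 fold change of -0.38 (SE 0.09, adjusted p = 0.000785, edgeR). The error of this estimate was the largest of the 10, and its 95% interval ran from -0.55 to -0.199.

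CDK2 (ENSG00000123374; chromosome 12, 55966781 to 55972789, plus strand), the kinase of both E-type cyclins and of cyclin A2, had 3079, 3100 and 3292 normalized counts in siControl and 2499, 2507 and 2495 in siSFPQ. Its log2 fold change was -0.34 (SE 0.043, adjusted p = 6.68e-08, edgeR). The siSFPQ libraries were almost identical to each other, and all lay under the lowest siControl library.

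CCNA2 (ENSG00000145386; chromosome 4, 121816444 to 121823883, minus strand), whose protein accumulates from S phase and is destroyed in mitosis, had 6369, 6568 and 6379 normalized counts in siControl and 5480, 5410 and 5482 in siSFPQ. Its log2 fold change was -0.24 (SE 0.038, adjusted p = 2.38e-06, edgeR). CDK1 (ENSG00000170312; chromosome 10, 60778331 to 60794852, plus strand) had 11375, 11596 and 11720 normalized counts in siControl and 8917, 9105 and 9198 in siSFPQ, a log2 fold change of -0.35 (SE 0.036, adjusted p = 5.7e-10, edgeR). Both genes were lower in all 3 siSFPQ libraries, and between 19.8% (CDK1) and 27.1% (CCNA2) of the genes at or above the lowest member's CPM had fallen as far.

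**Figure D2:**
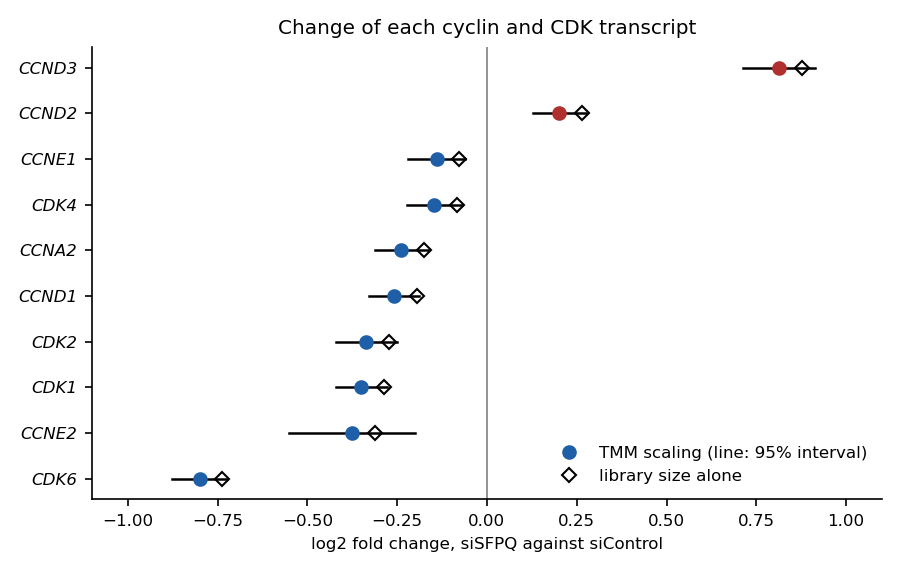
Log2 fold change of each transcript (x axis, siSFPQ against siControl) with its 95% interval as a line, red for genes that rose and blue for genes that fell; open diamonds give the value with library size alone as the scaling. All 10 genes keep their side of 0 under both scalings, with CCND3 at 0.81 and CDK6 at -0.80 as the extremes.

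Levels of different genes were compared per length, as RPKM, the CPM of a gene divided by the length of its merged exons in kilobases. In siControl the order of the mean RPKM was CCND1 at 73.1, CDK1 at 64.7, CCNA2 at 51.2, CDK4 at 49.8, CCNE1 at 33.3, CDK6 at 29.2, CCND2 at 21.7, CDK2 at 17.8, CCND3 at 7.04 and CCNE2 at 2.41, and no neighbours in that order overlapped over the 3 libraries. In siSFPQ the order changed in 2 places. CDK4 (45.0) stood before CCNA2 (43.4), with overlapping ranges, and CCND2 (25.0 ± 1.06) stood before CDK6 (16.8 ± 0.439), without overlap (SD, n = 3 each). CCND3 reached 12.4 RPKM and stayed under CDK2 at 14.1. The order depends on the length taken for each gene. With the longest annotated transcript as the length, CDK1 led at 130 RPKM in siControl, and CCND3 in siSFPQ stood at 29.8, above CCND2 at 29.1, CDK2 at 21.0 and CDK6 at 17.6.

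The composition of the D-type cyclin transcripts differed between the conditions without overlap. CCND1 made up 72.4, 71.9 and 71.1% of the summed D-type RPKM under control siRNA and 61.7, 63.3 and 61.3% after SFPQ knock-down. CCND3 went from 6.48, 6.84 and 7.42% to 12.6, 11.9 and 13.1%, and CCND2 from a mean of 21.3% to 25.3%. CCND1 remained the main D-type transcript in every library, with a difference in share of -9.68 percentage points (siSFPQ minus siControl). Shares within a library do not depend on how libraries are scaled to each other, but they depend on the length used, and with the longest transcript CCND3 went from 13.6 to 23.3% and CCND1 from 66.0 to 53.9%.

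The summed level of the D-type cyclins overlapped between the conditions. It was 102 ± 0.978 RPKM in siControl and 98.5 ± 2.57 in siSFPQ (SD, n = 3 each), a difference (exact permutation test, two-sided p = 0.2) whose sign turned with the longest transcript as the length (124 against 128 RPKM, exact p = 0.3). The summed level of CDK4 and CDK6 went from 79.0 ± 1.32 to 61.8 ± 1.87 RPKM, and that of the E-type cyclins from 35.7 ± 0.823 to 32.1 ± 0.349 RPKM (SD, n = 3 each). Neither of these overlapped between the conditions. With 3 libraries against 3, no exact permutation test can give a p under 0.1, and both reached that value.

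Ratios of cyclin to CDK transcripts within a library were higher in siSFPQ. The log2 ratio of D-type cyclins to CDK4 and CDK6 was 0.391, 0.35 and 0.357 in siControl and 0.703, 0.687 and 0.627 in siSFPQ. The log2 ratio of CDK4 to CDK6 went from 0.769 ± 0.0655 to 1.42 ± 0.111 (SD, n = 3 each). The log2 ratio of E-type cyclins to CDK2 was higher by 0.181, of CCNA2 to CDK2 by 0.0972 and of CCNA2 to CDK1 by 0.111, and the CCNE1 share of the E-type transcripts was higher by 0.96 percentage points. Without siControl replicate 3 the difference in CCNA2 to CDK2 was 0.06. None of the 9 shares and ratios overlapped between the conditions, and each had the smallest exact permutation p of 0.1, also 0.1 after adjustment over the 9.

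Differences in response between related members were also taken within each library. The log2 change of CCND3 exceeded that of CCND1 by 1.06 (SE 0.0837) and that of CCND2 by 0.60 (SE 0.0574), and the change of CCND2 exceeded that of CCND1 by 0.46 (SE 0.0318). The change of CDK4 exceeded that of CDK6 by 0.65 (SE 0.074), and that of CCNE1 exceeded that of CCNE2 by 0.22 (SE 0.0856). The conditions did not overlap in these 5 pairs (exact permutation p = 0.1 each, adjusted p = 0.12 over 6 pairs), although for CCNE1 and CCNE2 the nearest libraries were both at 0.11 after rounding. CDK2 and CDK1 differed by only 0.02 (SE 0.0251, exact permutation p = 0.6), a difference within the spread between libraries.

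Promoters of CCNA2 and CDK1, which both fell and held most of the motif matches, and of CDK6, the member with the largest fall, are shown from RefSeq (GRCh38.p14, 250 bases before to 50 after the start, 5′ to 3′ on the gene's strand), since motifs known from cell cycle genes can be read in them. Capitals mark matches on either strand to 3 motifs: the E2F words TTTCCCGC, TTTGGCGC, TTTCGCGC and TTTGCCGC, the cell cycle homology region (CHR) word TTTGAA with the variant word TTCGAA and the variant word CTTGAA, and the CCAAT box. The CCNA2 window is chr4:121823834-121824133, minus strand, the CDK1 window chr10:60778228-60778527, plus strand, for the second of its listed starts, and the CDK6 window chr7:92836524-92836823, minus strand, which holds none of the words.
CCNA2: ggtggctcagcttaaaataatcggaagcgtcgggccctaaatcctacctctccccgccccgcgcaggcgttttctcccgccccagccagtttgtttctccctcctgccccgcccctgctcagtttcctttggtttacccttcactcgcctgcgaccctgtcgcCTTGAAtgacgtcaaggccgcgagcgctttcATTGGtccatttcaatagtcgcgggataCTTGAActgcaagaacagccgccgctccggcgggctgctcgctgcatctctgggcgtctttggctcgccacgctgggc
CDK1: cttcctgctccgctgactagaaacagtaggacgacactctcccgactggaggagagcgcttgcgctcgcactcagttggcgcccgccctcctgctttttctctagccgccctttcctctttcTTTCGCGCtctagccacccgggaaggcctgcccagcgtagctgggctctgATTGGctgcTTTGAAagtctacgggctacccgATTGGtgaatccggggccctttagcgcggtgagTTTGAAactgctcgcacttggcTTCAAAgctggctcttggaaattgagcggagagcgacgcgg
CDK6: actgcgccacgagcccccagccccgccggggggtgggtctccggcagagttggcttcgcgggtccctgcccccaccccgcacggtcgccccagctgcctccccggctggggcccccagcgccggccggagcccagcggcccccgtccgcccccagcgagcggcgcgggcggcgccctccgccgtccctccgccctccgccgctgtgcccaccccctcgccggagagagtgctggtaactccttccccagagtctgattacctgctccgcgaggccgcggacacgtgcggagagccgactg

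Promoters were matched for 6 of the 10 genes, CCND3, CDK4, CDK6, CCNE1, CCNA2 and CDK1. Counted from the start, CCNA2 held the reversed CCAAT word ATTGG at -56 and CHR words at -87 and -28. The CDK1 window shown held an E2F word at -128, reversed CCAAT words at -78 and -46, and CHR words at -69, -13 and, reversed, 9. Its other listed window, chr10:60778081-60778380, counts from the annotated gene start at 60778331. There the same E2F word lay at 19, after the start, with a CHR word at -161 and a CCAAT word at -150. An E2F word occurred in 1 of the 6 genes and in 3.31% of all 35116 promoters, a CHR word in 2 genes (CCNA2 and CDK1) and 24.9% of promoters, and a CCAAT box in 3 genes (CCND3, CCNA2 and CDK1) and 34.6% of promoters. The member counts are per gene, over all its listed starts, while the percentages are per promoter. CCND3, CDK6 and CDK1 had several windows each, so counts and percentages are not on the same unit. In the windows shown no match overlapped another. These are matches of letters in a window and not sites shown to be used, and CDK4, CDK6 and CCNE1 held none.

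Among 8 other cell cycle cyclins and CDK partners tested, 1 rose and 3 fell, with a median log2 fold change of -0.09. Over all genes tested 44.6% were called, and 70.0% of those at or above the lowest member's CPM. CCNB1, the main mitotic cyclin and partner of CDK1, had 15755, 15711 and 16123 normalized counts in siControl and 15093, 15238 and 15447 in siSFPQ, and its log2 fold change of -0.06 (SE 0.035) did not pass the test (adjusted p = 0.207, edgeR). CCNB2 fell by 0.22, CCNF, an F-box protein of G2, by 0.16 and CKS2, a small CDK-binding subunit, by 0.11 on the log2 scale. CCNB3 rose by 0.53 (SE 0.088) from a low level of 9.08 mean CPM. CCNA1 and CDK3 were weakly expressed and CKS1B stood at -0.07, and none of the 3 passed the test.

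The CDK-activating kinase, which phosphorylates the activation loop of CDKs and is made of CDK7, cyclin H (CCNH) and the assembly factor MNAT1, changed in both directions. MNAT1 had 1529, 1494 and 1615 normalized counts in siControl and 469, 493 and 473 in siSFPQ, a log2 fold change of -1.69 (SE 0.065, adjusted p = 5.02e-21, edgeR). The siSFPQ libraries were all far under the siControl libraries. CDK7 rose by 0.38 (SE 0.047) and CCNH by 0.21 (SE 0.057).

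Of the kinases and phosphatases that set the inhibitory phosphorylation of CDK1 and CDK2, 3 of 5 fell and 0 rose (median -0.12). When any 1 library was left out, 2 fell. Over all genes tested 22.1% fell, and 38.7% of those at or above the lowest member's CPM. The inhibitory kinase WEE1 fell by 0.39 (SE 0.044), its relative PKMYT1 by 0.12 (SE 0.048) and the activating phosphatase CDC25C by 0.49 (SE 0.059). CDC25A and CDC25B stood at -0.00 and 0.01 and were not called.

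Of 10 genes of cyclin destruction by ubiquitin ligases, 5 fell and 0 rose (median -0.27). The shares that fell were 22.1% over all genes tested and 38.7% at or above the lowest member's CPM. FBXO31, an F-box protein that targets cyclin D1, fell by 0.86 (SE 0.071), the scaffold CUL3 by 0.48, CUL1 by 0.43, FBXW7, the F-box protein for cyclin E, by 0.33 and SKP2, which targets the inhibitor p27, by 0.32. The adaptors of the anaphase-promoting complex CDC20 (0.01) and FZR1 (-0.00), and SKP1, FBXO4 and AMBRA1, were not called.

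The CDK inhibitors diverged. CDKN1A, which encodes p21, had 11602, 11137 and 11704 normalized counts in siControl and 18913, 16599 and 19888 in siSFPQ, a log2 fold change of 0.69 (SE 0.045, adjusted p = 1.08e-14, edgeR). CDKN1B, which encodes p27, fell from 3761, 4029 and 4219 to 2620, 2739 and 2495 (-0.61, SE 0.046), and CDKN2C, which encodes p18 and binds CDK4 and CDK6, from 3731, 3885 and 3753 to 1826, 1937 and 2081 (-0.96, SE 0.047). The conditions did not overlap for any of these 3 genes, nor for 52.3% of all genes tested. That share was not taken among genes of similar CPM. CDKN2B fell by 0.31 (SE 0.078), CDKN1C and CDKN2D were not called, and CDKN2A, which encodes p16, had at most 2 counts in any library and was not tested. In all, 1 of 6 rose and 3 fell, with a median of -0.23. Genes at or above the lowest member's CPM rose in 31.3% and fell in 38.7% of cases.

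Downstream of the G1 kinases, 7 of 13 genes of the pocket proteins and the E2F and DP family fell and 1 rose (median -0.23). Among genes at or above the lowest member's CPM, 38.7% fell and 31.3% rose. RB1, the retinoblastoma gene, had 4874, 4894 and 4730 normalized counts in siControl and 3010, 3318 and 3156 in siSFPQ, a log2 fold change of -0.61 (SE 0.042, adjusted p = 3.68e-14, edgeR). Its relative RBL1 fell by 0.36 and RBL2 stood at -0.00. E2F1, an activator of S phase genes, fell by 0.25 and the repressors E2F6 and E2F8 by 0.45 and 0.67, while E2F5 rose by 0.89 (SE 0.09). The DP partners TFDP1 and TFDP2 fell by 0.23 and 0.44, and E2F2, E2F3, E2F4 and E2F7 were not called.

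Most genes of the phase-specific lists fell, against 22.1% of all genes tested and 38.7% of those at or above the lowest member's CPM. Of 39 S phase genes 28 fell and 0 rose, with a median log2 fold change of -0.21, and of 47 G2/M genes 38 fell and 3 rose, with the same median. POLA1, the catalytic subunit of DNA polymerase alpha, fell by 1.85 (SE 0.054), RRM2, a subunit of ribonucleotide reductase, by 1.09 (SE 0.037), the helicase-complex gene GINS2 by 0.76 and the chromatin remodeller HELLS by 0.62. Among the called G2/M genes with a mean of at least 1 CPM the mitotic gene PSRC1 had the lowest log2 fold change at -0.50, followed by HMGB2 (-0.48), CENPE, a kinetochore motor (-0.47), and the condensin subunit SMC4 (-0.45), all past the test. The summed S phase level ran from 4880 to 5030 CPM in siControl and from 3940 to 4040 CPM in siSFPQ, and the summed G2/M level from 10600 to 10900 and from 9150 to 9370 CPM. The part of these lists in the changes of CCNE1, CCNE2, CCNA2, CDK2 and CDK1, which also vary over the cell cycle or serve in it, was not tested.

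**Figure D3:**
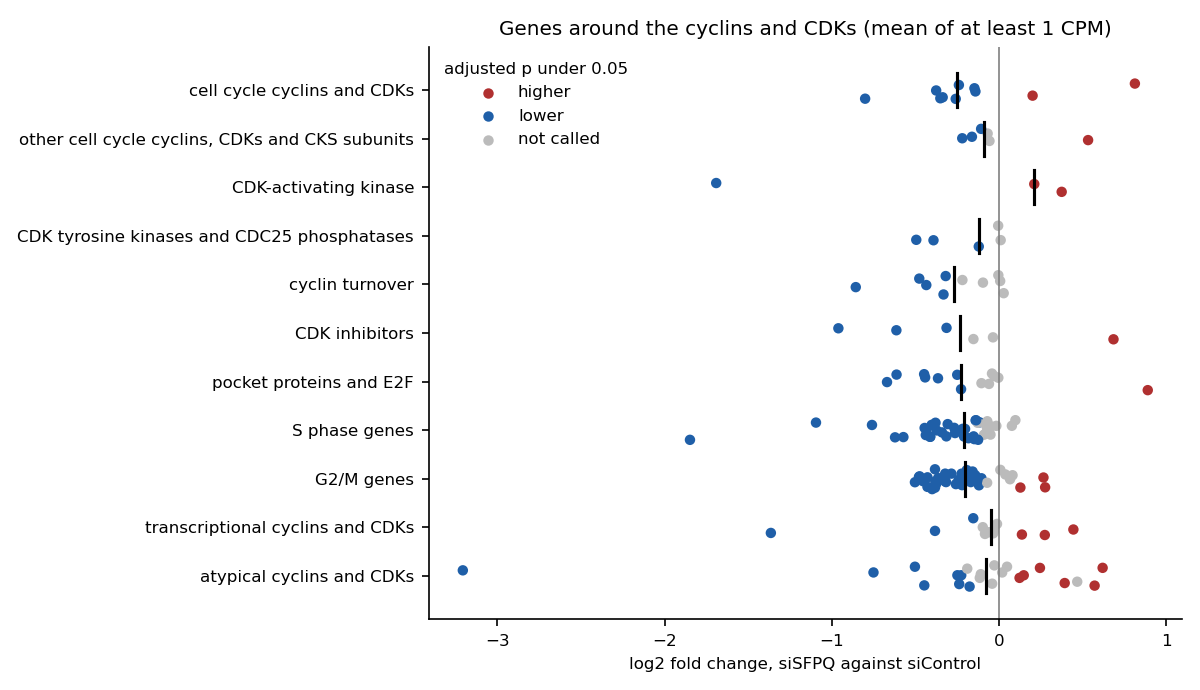
Log2 fold change (x axis) of each gene with a mean of at least 1 CPM in the lists of cell cycle genes, red where higher, blue where lower and grey where not called at an adjusted p under 0.05; black bars are the medians of the plotted genes. The S phase and G2/M lists lie mostly below 0, and CCND3 (0.81), CDKN1A (0.69) and E2F5 (0.89) stand to the right in their lists.

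Cyclins and CDKs of transcription and of other processes showed no common direction. Of 13 genes of the transcriptional group 3 rose and 3 fell (median -0.03), with CDK19, a Mediator kinase, falling by 1.36 (SE 0.051), CDK13 falling by 0.38, and CCNK and CDK9 rising by 0.45 and 0.28. Of 26 atypical members 7 rose and 8 fell (median -0.03). Both lists stand beside 22.4% higher and 22.1% lower over all genes tested. CDK14, which pairs with cyclin Y at the membrane, fell by 3.21 (SE 0.051, adjusted p = 1.71e-31, edgeR), and CCNO and CDK5R1, the activator of CDK5, rose by 0.62 and 0.57.

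The members differ widely in annotated gene span, from 6.01 kb for CDK2 to 115 kb for CCND3 and 232 kb for CDK6. Over all protein-coding genes tested, the median log2 fold change was 0.08 in 3363 genes under 10 kb, 0.09 in 4492 genes of 10 to 30 kb, -0.18 in 2007 genes of 100 to 200 kb and -0.79 in 1417 genes over 200 kb, of which 68.1% fell. CDK6 at -0.80 was close to the median of its span class. The same class also holds POLA1, RB1, FBXW7 and TFDP2, which fell too (spans of 303114, 295693, 215549 and 205117 bases). RUNX2, with a span of 336193 bases, is in it as well and was not called (0.06, adjusted p = 0.295, edgeR). CCND3 at 0.81 was, by its full annotated span, in the class of 100 to 200 kb, of which 48.3% fell and 18.0% rose. This minus-strand gene also has listed promoter windows at 41941759 to 41942058 and 41939156 to 41939455, near its lower coordinate of 41934934. A transcript from those starts spans far less, and which start was in use was not tested. The 7 members under 30 kb (CDK2, CCNA2, CDK4, CCNE1, CCND1, CDK1 and CCNE2) all fell, in classes with medians above 0. In these classes 17.9% of genes (under 10 kb) and 21.3% (10 to 30 kb) fell. The classes had no limit on CPM and also hold genes below the lowest member's mean of 9.38 CPM.

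Among cyclin and CDK genes of any kind with a mean of at least 1 CPM, 6 of the 7 spanning over 200 kb fell and 0 rose, with a median of -0.80. Without CDK6, 5 of 6 fell and 0 rose, with a median of -1.06. The genes over 200 kb that fell included CDK14, MNAT1, CDK19, CDK6 and CCNG2, the last of these at -0.50. CCNY, with a span of 326 kb and a log2 fold change of -0.04 (adjusted p = 0.412, edgeR), was the exception. CCNG2 and CCNY were named after their values were seen. Of the 39 genes under 100 kb, 12 rose and 14 fell (median -0.07), and of the 7 from 100 to 200 kb, 2 rose and 3 fell, with CCND3 the highest. What sets these differences by span was not tested.

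The neighbours of the members on the chromosome moved in both directions. Of the 20 nearest protein-coding genes that do not overlap a member, 8 rose and 6 fell, with a median of 0.02. For comparison, 44.6% of all genes tested and 70.0% of those at or above the lowest member's CPM were called. Whether neighbours followed the member beside them was not tested. TIGAR, a regulator of glycolysis that lies 2410 bases from CCND2 on the same strand, had 1222, 1224 and 1272 counts in siControl and 2881, 2996 and 2971 in siSFPQ, a log2 fold change of 1.25 (SE 0.048, adjusted p = 4.5e-21, edgeR). On the other side of CCND2, PARP11 fell by 0.87 (SE 0.07). Around CCND3, TAF8, a subunit of the general factor TFIID, and BYSL rose by 0.14 and 0.28, both less than CCND3 itself. Beside CDK6, FAM133B stood at -0.05 and was not called, and SAMD9 fell by 0.33. DGKA near CDK2 rose by 0.94 and BBS7, 446 bases from CCNA2, by 0.40, while the members beside them fell.

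Some genes overlap the members, and their counts are uncertain because the strand setting of the counting was not stated. CDK6-AS1, a long non-coding RNA on the opposite strand that shares 207 bases with the CDK6 start region, had 21, 47 and 25 counts in siControl and 6, 5 and 4 in siSFPQ, a log2 fold change of -2.61 (SE 0.478, adjusted p = 2.72e-05, edgeR). ENSG00000286742, an antisense transcript inside CDK6, had 0, 15 and 7 counts in siControl and 31, 36 and 29 in siSFPQ. CCND2-AS1 had 20, 10 and 14 counts in siControl and 2, 7 and 2 in siSFPQ. All 3 had at most 47 counts in a library, far under their hosts CDK6 and CCND2. TSPAN31, which overlaps CDK4 by 2493 bases, fell by 0.35 and MARCHF9, also overlapping CDK4, rose by 0.25. LTO1 at CCND1 rose by 0.20, EXOSC9 at CCNA2 by 0.12, and NDUFAF6 and INTS8 at CCNE2 by 0.25 and 0.17, while PMEL, which covers CDK2 whole, was not called.

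The genes whose profile over the 6 libraries was most like that of CCND3, by the Euclidean distance of log2(CPM + 0.5) values centred on the siControl mean among 15641 genes of at least 1 CPM, were GPRC5C (0.0536), OCIAD2 (0.0613), JADE2 (0.0637), SNHG4 (0.0819) and WNT10B (0.0821). Their log2 fold changes ran from 0.81 to 0.94, and values near that of CCND3 follow from the choice by this distance.

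Markers and reference genes gave the setting for these values. Of 10 housekeeping genes 1 rose (RPLP0, by 0.13) and 1 fell (ACTB, by 0.31), with a median of 0.03. Of 7 osteoblast lineage markers tested 3 fell and 1, BGLAP, rose from the floor. Over all genes tested 44.6% were called. The summed level of all 9 listed markers went from 5060 to 5390 CPM in siControl to 4310 to 4350 CPM in siSFPQ. Most of that sum was COL1A1 (mean 2595 CPM) and SPARC (2100 CPM), which both fell. SPP1 fell as well, while RUNX2, ALPL and COL1A2 were not called. Markers of other cell types summed to between 7.12 and 8.90 CPM in siControl and between 7.65 and 8.62 CPM in siSFPQ, with 2 of 7 at no more than 3 counts in every library. Of the 5 that were tested, 2 rose and 1 fell (median 0.25).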

How the data were processed

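Poly(A) RNA of U-2 OS cells was sequenced in 3 libraries per condition as paired reads. The authors aligned the reads to GRCh38 with STAR 2.7.9a, checked them with FastQC, named DESeq2 for their own tests, and deposited untransformed read counts for each Ensembl gene. The counting tool's strand setting is not given in the sources used here. Conditions and replicate numbers came from the sample labels, and every column with values of a sample was used (0 unused).

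Genes reaching 10 counts summed over the 6 libraries entered an edgeR 4.0.16 quasi-likelihood fit (R 4.3.3, TMM scaling, no covariate), and p-values were adjusted by Benjamini-Hochberg across 29022 genes. A gene was called at an adjusted p under 0.05. Standard errors were derived from the fold change and its F statistic. Fitted log2 fold changes use edgeR's small prior count. Total counts of 43469321 to 47119203 put 3 counts, taken as the floor, at 0.0637 to 0.069 CPM, which covers counting error only. RPKM used the merged exons of GENCODE release 44 on GRCh38, to which 99.7% of the gene IDs matched. Shares, ratios and sums were compared with two-sided exact permutation tests.

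Named genes were the 10 members, SFPQ, all genes of the small lists of direct regulators and the osteoblast lineage markers. Up to 4 genes with the largest called change of each other list were also named. So were genes next to or overlapping a member and the 5 genes most like CCND3. A gene that this rule would name is not reported here. The rule for the members used symbols only, but the members and lists were chosen with earlier results of these data known. Promoters came from RefSeq (GRCh38.p14). Replicates were checked for repeated libraries and none was found. Code was tested on simulated counts. The alternatives were other scalings, a stricter filter, no filter, a replicate block, DESeq2 1.42.0, another gene length and leaving out each library.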

Additional observations from a re-analysis of the deposited data

How the results depend on the processing

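Over 13 alternatives, each of the 10 members kept its direction. The calls of CCND1, CCND2, CCND3, CDK6, CCNE2, CDK2, CCNA2 and CDK1 held under all 13, with CCND3 between 0.77 and 0.88 and CDK6 between -0.83 and -0.74 on the log2 scale. Library size alone, which raised the median log2 fold change of all genes by 0.063, ended the calls of CDK4 (-0.083, adjusted p = 0.0756, edgeR) and CCNE1 (-0.077, adjusted p = 0.123, edgeR). Under it 2 S phase, 6 G2/M, 4 housekeeping and 2 osteoblast genes rose, and the median of genes spanning 30 to 100 kb turned to 0.063. With edgeR's own expression filter 0 osteoblast genes rose, as BGLAP was no longer tested.

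Leaving out 1 library at a time gave CCNE1 a log2 fold change between -0.154 and -0.117, with the call lost without siSFPQ replicate 1 (-0.119, adjusted p = 0.0555, edgeR). Over these fits 0 to 1 osteoblast genes rose (0 without siControl replicate 2), 0 to 1 S phase genes rose (1 without siControl replicate 3), 1 to 2 markers of other cell types rose (1 without siControl replicate 1 or siSFPQ replicate 2) and 1 to 2 housekeeping genes fell (2 without siSFPQ replicate 2).

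With the longest transcript as the length, the D-type shares of CCND1, CCND2 and CCND3 differed between the conditions (siSFPQ minus siControl) by -12.2, 2.47 and 9.7 percentage points, against -9.68, 4.04 and 5.64 with merged exons. This length was also applied to the summed levels after seeing the data, where the differences were 3.21 RPKM for the D-type cyclins, reversed in sign, -21.0 for CDK4 and CDK6 and -4.62 for the E-type cyclins.

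The labels give both conditions replicate numbers 1 to 3. Deviations of same-numbered libraries from their group means correlated by 0.00191, 0.0121 and 0.0153, so the numbers were not taken to pair the libraries, although each correlation was the highest for its libraries. With the replicate number as a block, 2 members rose and 8 fell as before, 6530 genes were higher and 6424 lower over all genes, against 6514 and 6421 without it, 5 transcriptional cyclin and CDK genes fell and 2 housekeeping genes rose. Depth limits CCNE2, which had the fewest counts of the 10 members. The cause of these differences was not tested.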
